A study of Rattus norvegicus with 42 samples.

Results

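The transcripts described here are those of the insulin-like growth factor (IGF) system in the neonatal rat hippocampus: the growth factor gene Igf1, the receptor genes Igf1r and Igf2r, and the binding protein genes Igfbp2, Igfbp3, Igfbp4, Igfbp5, Igfbp6 and Igfbp7. They were chosen by gene symbol, by a rule that does not use their measured values, though earlier results of these data were known. Of 15516 RefSeq transcripts in the count table, 11 carried these 9 symbols, and 9 of the 11 were among the 13062 transcripts with enough counts to be tested. The 2 others were minor Igf1 transcripts.

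Male Sprague Dawley pups received an intraperitoneal injection on postnatal day 7 (P7) of 1 of 3 agents, which were saline (the VEH group), 75 mg/kg phenobarbital (PB) and 200 mg/kg of levetiracetam (LEV), and the hippocampus was taken 72 h later, on P10. PB enhances GABA-A receptor currents and LEV binds the synaptic vesicle protein SV2A, and each is given to newborns with seizures. RNA of 42 pups was sequenced, 1 library per pup, and 1 VEH pup that the study excluded was left out of the comparisons, which leaves 13 VEH, 14 PB and 14 LEV pups. The animals came from 2 orders, litters were balanced over the treatments, and the sample codes have 2 forms, used for animals 1 to 6 of each group (the first series, 6 pups per group) and for animals 7 to 14 (the second series, 7 VEH, 8 PB and 8 LEV pups). Whether the series match the orders is not stated in the labels. The pups had no seizures induced, so the groups model drug exposure and not treated disease.

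IGF1 is a secreted peptide that acts through the tyrosine kinase receptor encoded by Igf1r, which signals through insulin receptor substrates to the PI3K-AKT and the RAS-ERK cascades and favors the survival and growth of neurons and glia. Igf2r encodes the cation-independent mannose 6-phosphate receptor, which takes up IGF2 and carries it to lysosomes. The secreted binding proteins hold IGFs in the extracellular space, lengthen their life and either withhold them from the receptor or deliver them to it. In the developing brain, IGF1 is made by neurons, microglia and other cells, and Igfbp2 is a product of choroid plexus, meninges and glia.

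In the rn6 assembly, as the file gives it, Igf2r lies on chr1:48176095-48264483 and Igf1r on chr1:128924921-129207050. The longest Igf1 transcripts span chr7:28412198-28486610, and Igfbp6 lies on the same chromosome at chr7:143749385-143754018. Igfbp2 (chr9:80118029-80144802) and Igfbp5 (chr9:80154230-80166814) are neighbors, with 9427 bases between them. Igfbp4 lies on chr10:86950555-86962564, Igfbp7 on chr14:33010300-33070193 and Igfbp3 on chr14:87457647-87465375. The counts are per transcript over exons, so no value belongs to an intron or a UTR alone.

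Promoters of 3 members that the results return to are shown, from RefSeq on GRCr8 (a later assembly than rn6), with 250 bases before and 50 after the annotated start. Capitals mark a GC box (GGGCGG) or an E-box (CACGTG), searched on both strands together with the TATA box (TATAAA), the CCAAT box (CCAAT) and a forkhead motif (GTAAACA). None of these matches overlapped another.
Igfbp2: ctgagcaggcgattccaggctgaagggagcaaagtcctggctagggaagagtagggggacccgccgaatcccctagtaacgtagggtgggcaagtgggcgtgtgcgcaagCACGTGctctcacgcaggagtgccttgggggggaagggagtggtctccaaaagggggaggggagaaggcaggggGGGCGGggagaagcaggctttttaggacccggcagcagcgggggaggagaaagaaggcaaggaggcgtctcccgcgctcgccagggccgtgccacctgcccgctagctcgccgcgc
Igfbp5: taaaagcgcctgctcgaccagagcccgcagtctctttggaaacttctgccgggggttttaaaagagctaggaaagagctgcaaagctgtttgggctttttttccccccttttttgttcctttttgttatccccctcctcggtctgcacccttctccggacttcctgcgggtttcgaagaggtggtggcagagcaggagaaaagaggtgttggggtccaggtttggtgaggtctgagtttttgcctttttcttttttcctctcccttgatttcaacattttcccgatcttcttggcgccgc
Igf1r: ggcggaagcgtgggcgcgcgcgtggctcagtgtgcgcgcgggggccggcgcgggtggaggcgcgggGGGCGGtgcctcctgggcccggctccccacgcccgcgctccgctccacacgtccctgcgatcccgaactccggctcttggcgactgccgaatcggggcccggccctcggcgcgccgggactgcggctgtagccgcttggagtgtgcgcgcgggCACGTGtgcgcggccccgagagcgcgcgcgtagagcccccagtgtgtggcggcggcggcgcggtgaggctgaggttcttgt
These are the neighbors Igfbp2 (chr9:81864561-81864860, plus strand) and Igfbp5 (chr9:81914138-81914437, minus strand), which face each other, and Igf1r (chr1:130959747-130960046, plus strand). Igfbp2 and Igf1r each hold 1 GC box and 1 E-box and have a GC content of 66.7% and 78%, while the Igfbp5 stretch holds none of the 5 motifs and has a GC content of 50.7%, against a median of 51.7% over 33469 rat promoters. Among all 9 members, the GC box stood in 4 (Igf2r, Igf1r, Igfbp2 and Igfbp7) and in 33.1% of all promoters, and the E-box in 3 (Igf2r, Igf1r and Igfbp2) and in 6.42%. The TATA box stood in Igfbp4 alone among the members (14.2% of all promoters), the forkhead motif in Igfbp6 alone (3.78%) and the CCAAT box in none of them (37.5%). A match describes the letters and is not a measured binding site.

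Libraries held 9499492 to 14488134 estimated counts in VEH, 9586794 to 13140913 in PB and 10112050 to 12482915 in LEV pups. All 12 transcripts of 10 marker genes of hippocampal neurons passed the filter. Normalized counts below are scaled to a library of 11405252 counts. Transcript lengths were not used, so levels are compared between pups and not between genes.

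None of the 9 tested members differed between PB and VEH pups 72 h after the dose at an adjusted p under 0.05 (edgeR's quasi-likelihood test with the series as a term, Benjamini-Hochberg adjustment over 13062 transcripts). Over all transcripts, 5.39% passed this threshold, and 0.605% passed it with a log2 fold change of at least 0.32 in size, the fold limit of the study's methods. The unadjusted p was under 0.05 for 3 members, Igf1r, Igf2r and Igfbp5, all higher in PB, beside 2639 of 13062 transcripts. The median log2 fold change of the members was 0.08, against 0.00 over all transcripts tested, with 5 members above and 4 below 0. For LEV against VEH the count was also 0 of 9, while 0.00766% of all transcripts (1 of 13062) passed the adjusted threshold and 0% did so with the fold limit. At the unadjusted p it was 0 of 9 members, beside 763 of 13062 transcripts. DESeq2 likewise called 0 members in each of these comparisons. As this is bulk tissue, fewer cells of a type and less RNA per cell cannot be told apart in any of these values.

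**Figure D1:**
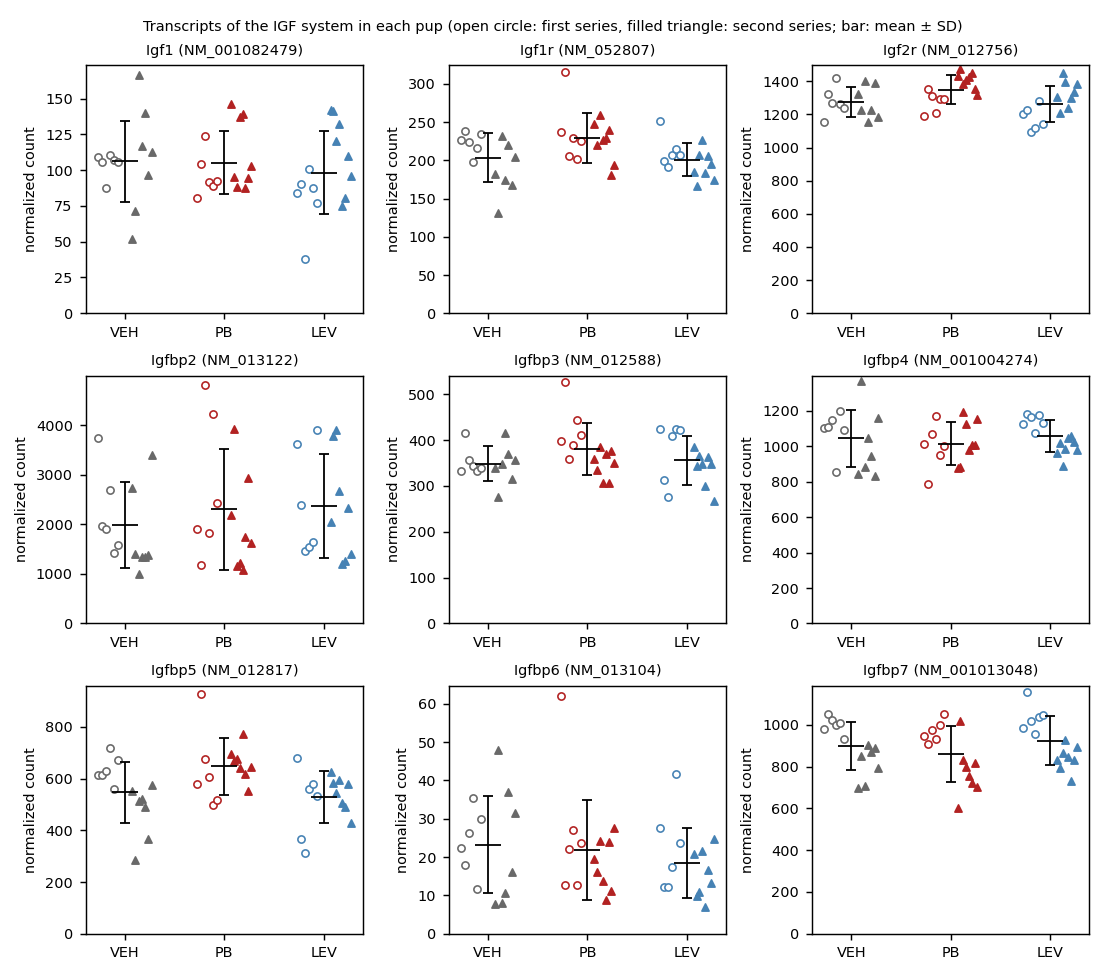
Normalized counts (y axis, from 0) of the 9 tested transcripts in each of 41 pups by group (x axis), with open circles for the first and filled triangles for the second series and a black bar for the mean ± SD. The groups overlap in every panel. Igfbp2 has the widest relative spread among the well-counted members, from 997 to 4808, and Igfbp7 sits lower in the second series of each group.

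**Figure D2:**
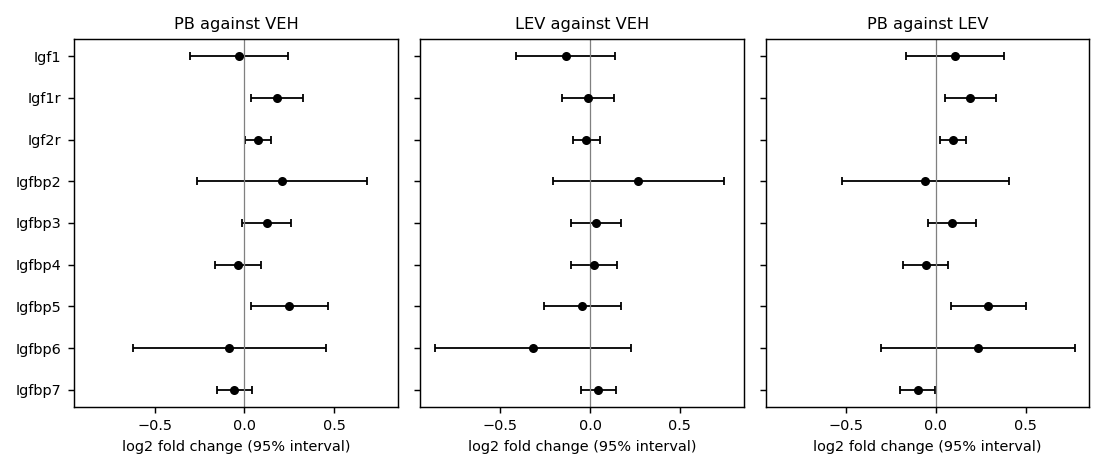
Log2 fold changes (points) with 95% intervals (bars) of the 9 members in 3 comparisons, from the model with the series as a term. The intervals of Igf1r, Igf2r and Igfbp5 lie above 0 for PB against VEH and for PB against LEV, the interval of Igfbp7 lies just below 0 for PB against LEV, and every interval for LEV against VEH covers 0.

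Igf1, the ligand, was measured as 3 RefSeq transcripts that share most of their sequence, so the split among them rests on the estimation of the authors' counting step. NM_001082479 took a median of 95.2% of the Igf1 counts of a pup, but 62.3% in VEH animal 8 and 63.3% in LEV animal 3, the pups with the lowest VEH and LEV values. Its normalized count ran from 51.9 to 166.8 with a median of 107.2 in VEH, from 80.6 to 146.1 with a median of 94.8 in PB, and from 37.8 to 142.4 with a median of 93.1 in LEV pups. The 3 ranges shared the stretch from 80.6 to 142.4. The mean was 106.3 ± 28.3 in VEH (SD, n = 13), 105.2 ± 21.9 in PB and 98.3 ± 29.1 in LEV pups (n = 14 each).

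For PB against VEH the log2 fold change of this transcript was -0.03 (SE 0.14, adjusted p = 0.930 by edgeR), with a 95% interval for the fold of 0.81 to 1.18. For LEV against VEH it was -0.14 (SE 0.14, adjusted p = 0.949). In the first series LEV pups had a lower mean than VEH pups, 79.6 ± 21.9 against 104.3 ± 8.44 (SD, n = 6 each), and the lowest value, 37.8, was LEV animal 3. In the second series the means were 112.3 ± 26.5 (n = 8) and 108.1 ± 39.2 (n = 7). The difference of the LEV effect between the series, 0.44 on the log2 scale (SE 0.27), had an adjusted p of 0.514.

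Of the other Igf1 transcripts, NM_001082478 was estimated at 0 in 30 of 41 pups and NM_178866 at 0 in 10 of 41, with highest values of 18.5 and 34.1. Neither passed the filter. Summed over the 3 transcripts, Igf1 was 116.3 ± 24.6 in VEH, 113.4 ± 23.0 in PB and 105.0 ± 25.7 in LEV pups. In the first series the sum was 117.2 ± 4.87 in VEH and 86.6 ± 18.7 in LEV pups (SD, n = 6 each). Their ranges were 111.3 to 125.6 and 60.2 to 117.6. In the second series the sum was 115.5 ± 34.4 in VEH (n = 7) and 118.8 ± 21.6 in LEV pups (n = 8). The sum was not tested within a series. With the counts of every gene summed before the test, the log2 fold change of Igf1 was -0.05 (SE 0.11) for PB and -0.17 (SE 0.11) for LEV against VEH, with adjusted p of 0.859 and 0.895 by edgeR.

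Igf1r, the signaling receptor, ran from 131.4 to 238.2 with a median of 216.0 in VEH, from 181.3 to 315.1 with a median of 227.8 in PB, and from 166.7 to 251.1 with a median of 202.4 in LEV pups. The highest value of all was PB animal 2 and the lowest VEH animal 9. In 11 of 14 PB pups Igf1r was above the VEH mean of the same series. The log2 fold change was 0.18 for PB against VEH (SE 0.07, adjusted p = 0.125 by edgeR), a fold of 1.13, and the 95% interval on the log2 scale ran from 0.04 to 0.32. For PB against LEV it was 0.19 (SE 0.07, adjusted p = 0.0981). Levels after LEV and VEH were close, with a log2 fold change of -0.01 and an interval for the fold of 0.898 to 1.10. By series, the PB difference from VEH was 0.08 (SE 0.09) in the first and 0.26 (SE 0.10) in the second.

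Igf2r, the lysosomal clearance receptor for IGF2, had the narrowest spread of the members, with a coefficient of variation of 7.78% over 41 pups. It ran from 1152 to 1421 with a median of 1265 in VEH, from 1190 to 1477 with a median of 1355 in PB, and from 1092 to 1452 with a median of 1259 in LEV pups. PB pups were above the LEV mean of their series in 13 of 14 cases and above the VEH mean in 12 of 14. The log2 fold change was 0.08 for PB against VEH (SE 0.04, adjusted p = 0.228 by edgeR) and 0.10 for PB against LEV (SE 0.04, adjusted p = 0.109), and the intervals reach a fold of 1.11 and 1.12. In the first series the PB and VEH means were 1275 ± 63.5 and 1278 ± 89.5 (SD, n = 6 each). In the second series they were 1406 ± 52.8 (n = 8) and 1273 ± 98.3 (n = 7).

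Igfbp5, a binding protein that attaches to extracellular matrix, had the largest PB difference among the members with unadjusted p under 0.05. Its normalized count ran from 286.3 to 717.8 with a median of 558.5 in VEH, from 495.9 to 925.9 with a median of 642.5 in PB, and from 313.4 to 680.6 with a median of 552.6 in LEV pups. The 2 lowest VEH values, 286.3 and 364.7, were animals 9 and 13 of the second series, and the highest PB value was animal 2 of the first. The log2 fold change for PB against VEH was 0.25 (SE 0.11, adjusted p = 0.167 by edgeR), a fold of 1.19 with an interval of 1.02 to 1.38. For PB against LEV it was 0.29 (SE 0.10, adjusted p = 0.0927), and 13 of 14 PB pups were above the LEV mean of their series. For LEV against VEH it was -0.04 (SE 0.11, adjusted p = 0.989).

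Values of Igfbp5 by series are given next. In the first series it was 634.0 ± 54.8 in VEH and 633.1 ± 157.2 in PB pups (SD, n = 6 each), a log2 fold change of -0.00 (SE 0.16, adjusted p = 0.996 by edgeR within the series). In the second series it was 471.4 ± 105.8 in VEH (n = 7) and 657.2 ± 63.4 in PB pups (n = 8), a log2 fold change of 0.48 (SE 0.11, adjusted p = 0.0171). VEH values ran from 286.3 to 574.1 and PB values from 550.4 to 770.4, so these groups overlapped only between 550.4 and 574.1. Igfbp5 was the 1 member of 9 called within the second series, where 4.09% of 13065 transcripts were called. Within the first series 0 of 10 member transcripts were called, NM_178866 of Igf1 being tested there too, beside 0.488% of 13112 transcripts. Leaving out any 1 pup of the second series kept the call, with log2 fold changes from 0.39 (without VEH animal 9) to 0.53 and adjusted p from 0.0114 to 0.0408. The call depends on the exclusion of VEH animal 7, whose code has the form of the second series. With that pup added to the fit of this series, the log2 fold change was 0.26 (SE 0.16, adjusted p = 0.484 by edgeR), 0 members were called, and the share of all transcripts called was 0.2%. Its Igfbp5 was 1029.7 on the scale of that fit, against means of 527.8 ± 223.9 in all 8 VEH pups (SD) and 634.5 ± 60.9 in 8 PB pups.

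The difference between the series in the PB effect on Igfbp5 was 0.48 on the log2 scale (SE 0.20), with an unadjusted p of 0.0197 and an adjusted p of 0.349 over all transcripts. For LEV it was 0.53 (SE 0.20, adjusted p = 0.219), from -0.32 in the first to 0.20 in the second series. The effects of PB and LEV share the VEH pups. The means of the first and second series were 634.0 and 471.4 in VEH, 633.1 and 657.2 in PB and 505.8 and 544.1 in LEV pups. No member passed the test of a difference between the series for either drug. Over all transcripts 0.0689% passed it for PB and 0.842% for LEV. The contrast of PB with LEV does not use the VEH means, though VEH pups enter the filter, scaling and spread of its fit. It gave 0.32 (SE 0.16) for Igfbp5 in the first and 0.28 (SE 0.11) in the second series.

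**Figure D3:**
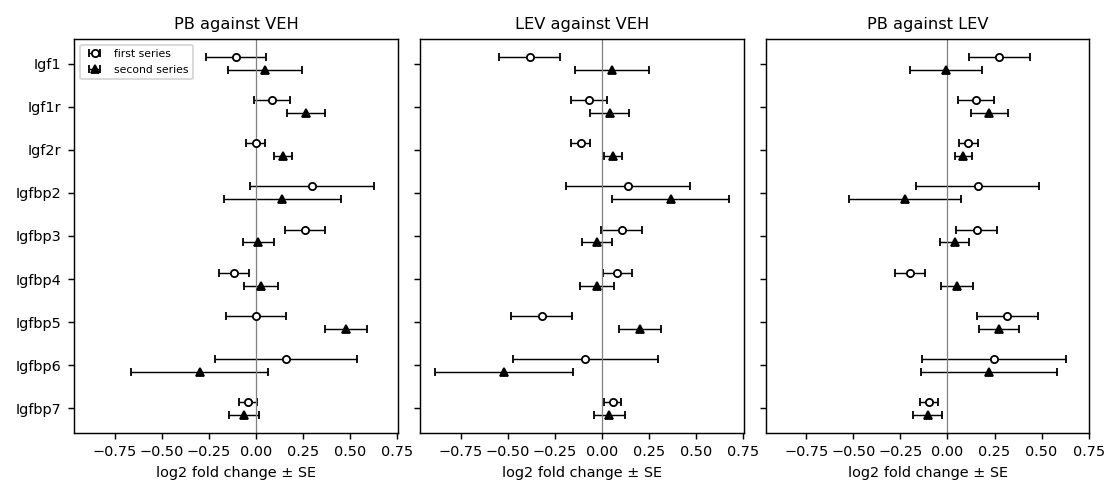
Log2 fold changes (x axis) ± SE of the 9 members in the first series (open circles) and the second (filled triangles), each series tested alone. Igfbp5 stands at -0.00 and 0.48 for PB against VEH and at -0.32 and 0.20 for LEV against VEH, while PB against LEV gives 0.32 and 0.28.

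Directly between the drugs, 0 of 9 members passed the adjusted threshold, beside 4.45% of all transcripts, and 0.582% with the fold limit. The unadjusted p was under 0.05 for 4 members, the higher Igfbp5, Igf1r and Igf2r and the lower Igfbp7, beside 2565 of 13062 transcripts.

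Igfbp2, a binding protein abundant in cerebrospinal fluid, ran from 997 to 3741 with a median of 1578 in VEH, from 1086 to 4808 with a median of 1866 in PB, and from 1199 to 3909 with a median of 2187 in LEV pups. The ranges overlapped from 1199 to 3741. The mean was 1992 ± 871 in VEH (SD, n = 13), 2304 ± 1221 in PB and 2369 ± 1041 in LEV pups (n = 14 each). The log2 fold change was 0.21 for PB (SE 0.24, adjusted p = 0.677 by edgeR) and 0.27 for LEV (SE 0.24, adjusted p = 0.932) against VEH. The intervals of the fold, 0.831 to 1.61 and 0.866 to 1.68, are wide because of this spread, so a change of 1.5-fold could not be told from none.

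Igfbp2 moved with the markers of choroid plexus, the epithelium that secretes cerebrospinal fluid and lies beside the hippocampus. All 12 marker genes of the list were in the table, as 14 transcripts of which 13 were tested. Their summed normalized count ran from 351.0 to 57103 in VEH, from 339.3 to 89455 in PB and from 427.1 to 66918 in LEV pups. Ttr (transthyretin), the main secreted protein of this epithelium, ran from 9.21 to 51024 in VEH, from 26.7 to 81378 in PB and from 20.9 to 56646 in LEV pups. No pup had Ttr at 0, while 6 of the 14 transcripts were at 0 in some pups (Clic6, Sostdc1, Kcnj13, Prlr and the 2 of Otx2), Prlr in 24 of 41.

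With the means of groups and series removed, Igfbp2 and the summed choroid plexus markers had a Pearson r of 0.933 and a Spearman rho of 0.942 over 41 pups. The permutation p, 1e-05 for each, is the smallest that 100000 permutations can give, and the adjusted p over 72 pairs of a member and a list was 0.00072 for each. Without the 2 pups farthest from the median of the list, PB animal 2 and VEH animal 11, r was 0.931. It was 0.934 within the first series and 0.932 within the second. The list level had a largest gap of 0.92 between neighboring pups on a log2 scale from 8.41 to 16.4. Many pups lay toward the ends, with 13 under 10 and 17 over 14 on this scale. Ttr alone made up most of the highest levels, reaching 51024 in VEH pups, where the sum reached 57103.

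The list level differed from VEH by 1.14 (SE 1.14) after PB and by 1.06 (SE 1.14) after LEV on the log2 scale. With the list level as a covariate the log2 fold change of Igfbp2 was -0.06 (SE 0.09, adjusted p = 0.746 by edgeR) for PB and 0.03 (SE 0.09, adjusted p = 0.993) for LEV against VEH. The SE fell from 0.24 to 0.09 with this term.

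**Figure D4:**
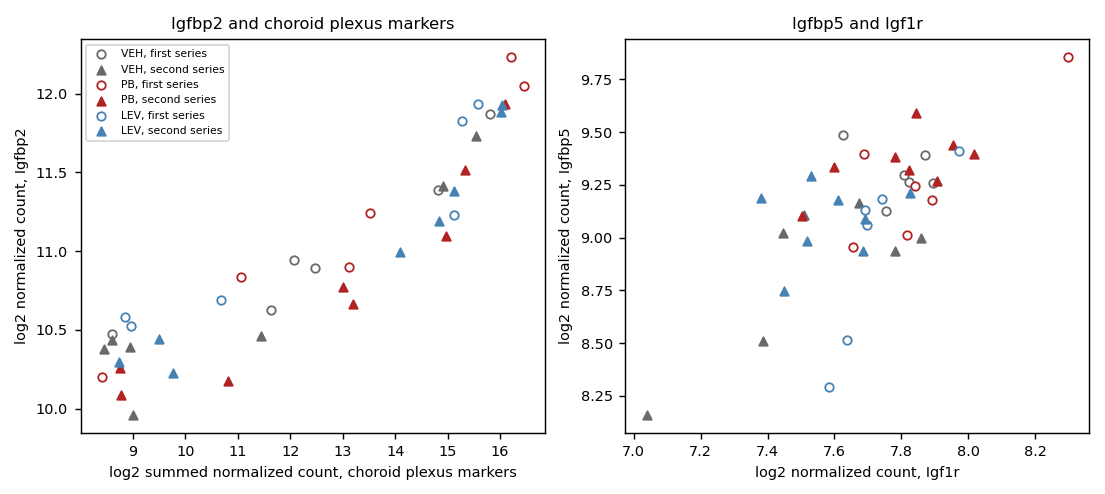
Left, log2 normalized count of Igfbp2 (y axis) against the log2 summed normalized count of the choroid plexus markers (x axis), and right, Igfbp5 against Igf1r, 1 point per pup with color for the group and shape for the series. Igfbp2 climbs with the markers in all 3 groups (r of 0.933 with group and series means removed), and Igfbp5 and Igf1r rise together more loosely (r of 0.64), with PB animal 2 at the upper and VEH animal 9 at the lower end.

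The 3 transcripts of other genes most like Igfbp2 over the 41 pups were Mmp2 (r of 0.970), a matrix metalloproteinase, Enpp2 (0.960), the enzyme autotaxin, which is on the choroid plexus list, and Cltrn (0.957). Igfbp2 also moved with the markers of meninges and fibroblasts (Pearson r of 0.533, Spearman rho of 0.556, permutation, adjusted p = 0.0068 and 0.0061). Without PB animals 2 and 3, the pups farthest from that list's median, r was 0.438 (permutation test, adjusted p = 0.0654), and within the series r was 0.669 and 0.421 with adjusted p of 0.0544 and 0.374 by permutation. The call was lost in each of these subsets, while r stayed positive. The list was summed from 14 of 14 transcripts, none at 0 in any pup, and ran from 5697 to 9093 in VEH, from 3256 to 10234 in PB and from 5001 to 8804 in LEV pups.

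No other of the 72 pairs passed an adjusted p of 0.05. Nearest to it were 3 negative relations with the endothelial markers, for Igfbp5 (r of -0.46, rho of -0.37), Igf1r (r of -0.45, rho of -0.33) and Igf1 (r of -0.43, rho of -0.43), with permutation p adjusted to 0.0624, 0.0648 and 0.0816 for r. The summed endothelial level ran from 4389 to 5467 in VEH, from 3972 to 5479 in PB and from 4735 to 5838 in LEV pups, with 12 of 12 transcripts tested and none at 0. It was lower than VEH by a log2 difference of -0.10 (SE 0.04) after PB, and its part in the PB values of Igfbp5 and Igf1r was not tested. The interneuron markers, 11 of 11 transcripts tested and none at 0, differed from VEH by -0.22 (SE 0.04) after PB, with levels from 6213 to 9588 against 7542 to 10139 in VEH and 8190 to 10664 in LEV pups, and the hippocampal neuron markers by -0.11 (SE 0.03). No member had an adjusted p under 0.05 with the interneuron markers, and the hippocampal neuron markers were not correlated with the members. The part of both lists in the members' values was not tested. Of the skeletal muscle markers, 4 of 21 transcripts were tested (Acta1, Atp2a1, Myh1 and Myh4), 18 of 21 were at 0 in some pups, and 3 of the 4 were called lower for PB against VEH. Their summed level ran from 293.7 to 411.0 in VEH and from 149.3 to 191.4 in PB pups of the first series, and from 128.7 to 187.0 and 115.7 to 180.1 in the second, and 2 of the 4 were called for a difference of the PB effect between the series. The part of these markers in the values of Igfbp5 by series was not tested.

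Igfbp3, the main carrier of IGFs in blood and a product of vessels and neurons in the brain, ran from 276.2 to 416.2 with a median of 343.1 in VEH, from 305.4 to 527.4 with a median of 373.6 in PB, and from 267.9 to 423.7 with a median of 355.2 in LEV pups. PB animal 2 again had the highest value. Its log2 fold change was 0.12 for PB (SE 0.07, adjusted p = 0.315 by edgeR) and 0.03 for LEV against VEH (SE 0.07, adjusted p = 0.989). In contrast to Igfbp5, the larger PB difference was in the first series, at 0.26 (SE 0.11), with 0.01 (SE 0.08) in the second.

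Igfbp4, which mostly withholds IGFs from the receptor until it is cleaved, ran from 830.1 to 1370 in VEH, from 786.3 to 1194 in PB and from 889.9 to 1185 in LEV pups, with medians of 1092, 1007 and 1052. Its log2 fold change was -0.04 for PB (SE 0.06, adjusted p = 0.813 by edgeR) and 0.02 for LEV against VEH (SE 0.06, adjusted p = 0.989). The intervals of the fold were 0.892 to 1.07 and 0.928 to 1.11.

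Igfbp7, a matrix-bound relative with low affinity for IGFs that is made by vessels, ran from 696.2 to 1050 in VEH, from 600.0 to 1052 in PB and from 732.0 to 1158 in LEV pups, with medians of 905.2, 869.5 and 911.0. Only 2 of 14 PB pups were above the LEV mean of their series. The log2 fold change was -0.10 for PB against LEV (SE 0.05, adjusted p = 0.231 by edgeR), -0.06 for PB against VEH (SE 0.05, adjusted p = 0.579) and 0.05 for LEV against VEH (SE 0.05, adjusted p = 0.949).

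Igfbp6, which prefers IGF2, had few reads, with normalized counts from 7.83 to 47.9 in VEH, from 8.91 to 61.9 in PB and from 7.08 to 41.6 in LEV pups and medians of 22.3, 20.8 and 16.98. Its log2 fold changes, -0.09 for PB (SE 0.27) and -0.32 for LEV (SE 0.27) against VEH, had adjusted p of 0.895 and 0.930 by edgeR. At this depth the interval for LEV, a fold of 0.549 to 1.17, does not tell a fall of 1.5-fold from none.

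Between the 2 series, with treatment as a term, some members differed. Of 9 members, 4 differed at an adjusted p under 0.05 in the second against the first series, 1 higher and 3 lower, beside 30.2% of all transcripts, so the count is not high for this table. Igfbp7 differed most. Its normalized count was 1000.5 ± 58.5 (SD, n = 18) in the first and 812.6 ± 91.8 (n = 23) in the second series, with ranges of 909.4 to 1158 and 600.0 to 1016, and a log2 fold change of -0.30 (SE 0.04, adjusted p = 2.1e-07 by edgeR). It was lower in the second series in each group, with means of 998.3 and 817.1 in VEH, 968.7 and 781.0 in PB and 1034 and 840.4 in LEV pups.

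Igf2r was higher in the second series (1338 ± 93.2 against 1243 ± 85.9, log2 fold change 0.11, SE 0.03, adjusted p = 0.0061), though the VEH means, 1278 and 1273, hardly differed. Igfbp3 was lower (344.5 ± 36.0 against 384.2 ± 58.7, -0.16, SE 0.06, adjusted p = 0.0296). Igf1r was lower as well (202.4 ± 30.8 against 223.5 ± 28.1, -0.15, SE 0.06, adjusted p = 0.0473), a call that DESeq2 size factors or no filter on low counts moved to adjusted p of 0.0519 and 0.0592. Igf1 was higher by 0.25 (SE 0.11, adjusted p = 0.0893). The series differ in whatever sets the codes apart, and their causes cannot be told apart here.

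Across pups, 4 members tended to be high or low together. With group and series means removed, Igfbp5 had a Pearson r of 0.64 with Igf1r, 0.53 with Igf1 and 0.50 with Igfbp3 over 41 pups, and Igf1r had 0.38 with Igfbp3 and 0.35 with Igf1. The r of Igfbp5 with Igf1r was 0.68 in the first and 0.63 in the second series. Igfbp4 had a negative r with Igf2r (-0.49), Igfbp3 (-0.31) and Igfbp5 (-0.30). The genomic neighbors Igfbp2 and Igfbp5 had an r of 0.13. These are descriptions over the same libraries, which share depth and composition, and carry no p.

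For 3 of these 4 members, 2 pups lay at the ends of the range. VEH animal 9 had the lowest VEH values of Igf1r (131.4), Igfbp5 (286.3) and Igfbp3 (276.2) and the highest VEH values of Igfbp4 (1370) and Igfbp6 (47.9). PB animal 2 had the highest Igf1r (315.1), Igfbp5 (925.9) and Igfbp3 (527.4) of all pups and the lowest Igfbp4 (786.3). Igf1 NM_001082479, at 71.3 and 104.7, lay inside the range of each pup's group. Summed over the 3 Igf1 transcripts, VEH animal 9 had the lowest VEH value, 72.4, while PB animal 2 had 117.3.

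**Figure D5:**
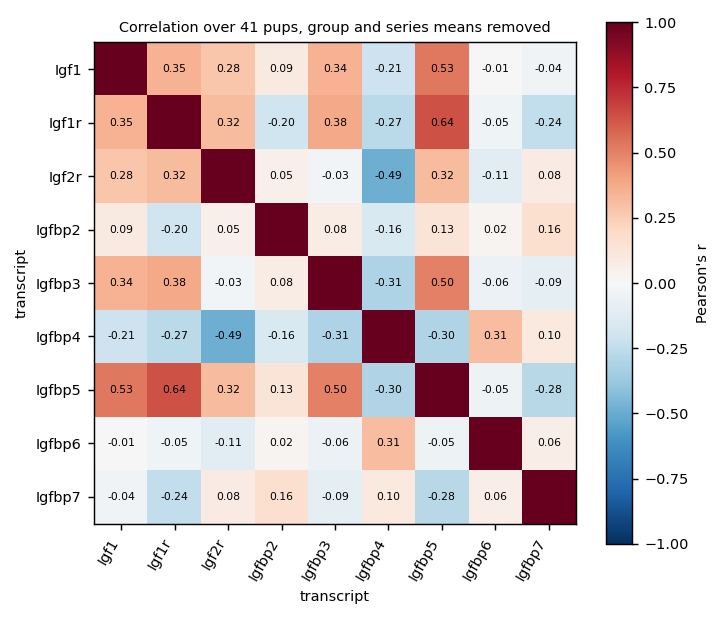
Pearson r between each pair of the 9 members over 41 pups after removal of group and series means, with the diagonal at 1. Igf1, Igf1r, Igfbp3 and Igfbp5 form a block of positive values from 0.34 to 0.64, Igfbp4 is negative against each of them and against Igf2r, and Igfbp2 lies between -0.20 and 0.16 against each member.

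The other transcripts most like each member were found over the same pups. For Igfbp5 they were Cadm1 (r of 0.85), Tenm4 (0.85) and Negr1 (0.79), and for Igf1r they were Tenm2 (0.81), Sestd1 (0.81) and Srgap2 (0.80), among which Cadm1, Tenm4, Negr1 and Tenm2 encode adhesion proteins of neurons. For Igf2r they were Lifr, Ndst1 and Ep400 (0.67 to 0.72), for Igf1 Prrc2c, Arhgap5 and Ankrd12 (0.69 to 0.70), and for Igfbp3 Fxyd6, Zcchc12 and Spata7 (0.63 to 0.68). For Igfbp4 they were Vgf (0.76), Il34 (0.74) and Sidt1 (0.74), of which Vgf encodes a secreted neuronal peptide precursor. For Igfbp6 they were Tor3a, Arpp21 and Cpne9 (0.59 to 0.63), and for Igfbp7 Ppia, Ctu2 and Atp5mc1 (0.59 to 0.60).

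Around the members, a list of 65 other genes of IGF and insulin signaling had 58 genes in the table and 61 tested transcripts. For PB against VEH, 1 was higher and 3 were lower at an adjusted p under 0.05, or 6.56% against the 5.39% of all transcripts. The list's median log2 fold change was 0.04. None was called for LEV against VEH. For PB against LEV 2 were higher and 1 was lower, or 4.92% against 4.45%. Between the series 15 were higher and 5 lower, or 32.8% against 30.2%, among them Igf2 NM_031511 at -0.81 (SE 0.24, adjusted p = 0.0085 by edgeR). This is a minor Igf2 transcript, with a VEH mean of 143.2, while NM_001190162 had a VEH mean of 2002. NM_001190162 was not called lower between the series. The split among Igf2 transcripts also rests on the authors' counting step, so the fall describes NM_031511 and not Igf2 as a whole.

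The transcripts called for PB belong to the adaptors and kinases downstream of the receptor, and 3 of them are described. Gab1, a docking protein of receptor tyrosine kinases, ran from 581.1 to 707.0 in VEH and from 643.1 to 774.5 in PB pups, with a log2 fold change of 0.14 (SE 0.04, adjusted p = 0.0175 by edgeR), and 14 of 14 PB pups were above the VEH mean of their series. Map2k1, which encodes the ERK kinase MEK1, ran from 1894 to 2372 in VEH and from 1463 to 2028 in PB pups (-0.18, SE 0.04, adjusted p = 0.0094), and 0 of 14 PB pups were above the VEH mean. Grb2, the adaptor that links receptors to RAS activation, fell by 0.07 on the log2 scale (SE 0.02, adjusted p = 0.0451), from 3246 ± 104 in VEH to 3098 ± 89.9 in PB pups (SD). Each of these 3 differences is smaller than the estimate for Igfbp5 (0.25), and each has a smaller SE.

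Against LEV, PB pups had higher Gab1 (0.14, SE 0.04, adjusted p = 0.0211 by edgeR) and lower Map2k1 (-0.20, SE 0.04, adjusted p = 0.0042). Among the smallest p of the list for LEV against VEH were those of Akt1 (-0.09, SE 0.05, adjusted p = 0.844) and of Igf2 NM_001190163 (0.48, SE 0.26, adjusted p = 0.844). Neither passed the test.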

How the data were processed

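Total RNA of 42 hippocampi was sequenced. The authors aligned paired reads to rn6 with STAR 2.7.3a. Partek's E/M step then gave each RefSeq transcript an estimated count, and the estimated counts were deposited without normalization. Their table of DESeq2 comparisons (p, fold changes and group means) was not used. After rounding, the counts were tested with edgeR 4.0.16 under R 4.3.3: TMM, filterByExpr by treatment (13062 of 15516 transcripts), and glmQLFit and glmQLFTest with treatment and series as terms, Benjamini-Hochberg adjusted. The study removed batch and batch-by-treatment effects by a linear model before DESeq2, and that form was run as an alternative with DESeq2 1.42.0. Correlations used log2 CPM (prior count 2) with group and series means removed and 100000 two-sided permutations within series. Normalized counts are scaled with effective library sizes, and SE and intervals give their precision. Members, gene lists and rules (all members, called pathway transcripts and the 3 of smallest p for each drug, and the 3 most similar transcripts per member) were chosen with earlier results of these data known. Some pathway transcripts that these rules name are counted but not reported here by name.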

Additional observations from a re-analysis of the deposited data

Results flagged for a closer look

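The VEH pup that the study excluded (animal 7) is in the deposited counts but in no main comparison above. Its sample code has the form of the second series. Its normalized counts of 3 members lay above all 13 other VEH pups, which is why they are given here. Igf2r was 1525, against 1151 to 1420 in the 13 others. Igf1r was 260, against 131 to 238. Igfbp5 was 1079, against 286 to 717, and with this pup in the fit of the second series Igfbp5 was no longer called for PB against VEH (log2 fold change 0.26, adjusted p = 0.484 by edgeR). Igfbp3, at 209.3, lay below the lowest of the others (275.9), and Igf1 NM_001082479, at 50.2, below theirs (51.8). The study's methods name the pup's sequencing coverage as the ground for its exclusion, and its part in these values was not tested.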

How the results depend on the processing

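For LEV against VEH 0 of 9 members were called under every alternative run. For PB against VEH the count was 0 except within the second series alone (1, Igfbp5, and 0 with the excluded VEH pup added), where 534 of 13065 transcripts were called. For PB against LEV it was 0 except where series and series-by-treatment effects were subtracted before DESeq2 (2, Igf2r at 0.098 with adjusted p = 0.0416 and Igfbp5 at 0.30 with adjusted p = 0.0256). After that subtraction 1099 of 13062 transcripts were called for PB against LEV, against 581 in the main fit. The other alternatives were DESeq2, TMM replaced by the size factors of DESeq2, other filters on low counts (none, or a minimum mean of 50), no series term, a series-by-treatment term, the replicate block, all 14 VEH pups, only the groups compared, counts summed per gene symbol, robust dispersion, the choroid plexus or meninges level as a covariate, and each of 41 pups left out in turn (0 in each drug comparison). Between the series the count was 3 or 4. Of the pairs of a member and a list, 1 was called in the first series alone and 1 in the second (Igfbp2 with choroid plexus), against 2 over all pups. Without the 2 farthest pups, Igf1r with endothelium was called (r of -0.53) in place of Igfbp2 with meninges. Leaving single pups out of the second series, and adding the excluded pup to it, were chosen after seeing the data.

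Signs turned within the first series for PB against VEH in Igf2r (-0.0020), Igfbp5 (-0.0022) and Igfbp6 (0.16), and for PB against LEV in Igfbp2 (0.16). Within the second series they turned for PB against VEH in Igfbp4 (0.026) and Igf1 (0.046), for LEV against VEH in Igf2r (0.059), Igf1r (0.041), Igfbp4 (-0.025), Igfbp3 (-0.025), Igf1 (0.054) and Igfbp5 (0.20), and for PB against LEV in Igfbp4 (0.051) and Igf1 (-0.0085). With all 14 VEH pups Igf1 turned to 0.031 for PB, and with the choroid plexus covariate Igfbp2 turned to -0.063. With single pups left out, the ranges that crossed 0 were, for PB against VEH, Igf1 (-0.099 to 0.030), Igfbp4 (-0.060 to 0.0091) and Igfbp6 (-0.28 to 0.077), for LEV against VEH, Igf1r (-0.050 to 0.013), Igfbp4 (-0.0045 to 0.065) and Igfbp5 (-0.10 to 0.0078), and for PB against LEV, Igfbp2 (-0.17 to 0.030). None of these passed the test, and the cause was not tested.

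Over all transcripts, 704 were called for PB against VEH, against 410 with no series term, 392 with all 14 VEH pups, 64 within the first series and 1111 after the subtraction. For PB against LEV the 581 became 288, 174, 81 and 1099 in the same order, and 132 within the second series. For LEV against VEH the 1 became 0, 0, 346 and 68, and 10 with DESeq2, 17 with the series-by-treatment term and 6 within the second series.

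The labels do not state whether equal animal numbers mark pups of the same litter. The correlations given next cannot settle this, as a weak effect of litter would not be seen in them. The main model has no litter term. Correlations of same-numbered pups ran from -0.27 to 0.33 for PB and VEH (3 of 13 over 0.1), from -0.33 to 0.25 for LEV and VEH, and from -0.25 to 0.30 for PB and LEV, and in each comparison 1 pup correlated best with its own number. With the number as a replicate block in place of the series, 0 members were called in each comparison, and over all transcripts 447 were called for PB against VEH, 0 for LEV against VEH and 457 for PB against LEV. Depth limits Igfbp6 and the minor Igf1 transcripts.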
